A study of Oryzias latipes with 4 samples.

Results

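Proteolipid protein (plp, LOC101157800), myelin basic protein (mbp, LOC101159204) and CD59 (cd59) were followed as 3 of the 20898 gene names in the expression table of a day-length study in female medaka (Oryzias latipes), a small freshwater fish. The 3 genes were chosen by name, with earlier results of these data known. Every row of the table whose best BLAST hit carried one of these names was taken, 5 of 93896 rows, and rows of one gene were summed. The fish came from a dealer and lived under short days (SD). One group remained on short days throughout, and the other was switched to long days (LD) 16 h before sampling, with no other treatment named. The tissue was a block of ventral telencephalon, hypothalamus and pituitary, from 6 fish in each condition. There were 2 libraries a group, called SD 1 and SD 2, and LD 1 and LD 2. Where a gene's values are listed without library names, they follow this order. The sources used here state neither strain nor age, nor how the 6 fish were divided over libraries, so a p-value reflects library-to-library spread, part of which may be technical. Levels are in FPKM, fragments scaled to the length of the row and to the mapped total, which allows levels of different genes to be compared per length.

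Myelin is the stack of tightly wrapped membrane that insulates axons. Oligodendrocytes make it in the brain and Schwann cells make it in nerves. Proteolipid protein spans that membrane and holds its outer faces together, and myelin basic protein lies on the inner face and compacts it. CD59 is a lipid-anchored surface protein that blocks the last step of complement, the insertion of a lytic pore, and in zebrafish it is expressed by myelin-forming glia. The table describes the first 2 genes as myelin proteins and the third as CD59 glycoprotein, so the myelin name of cd59 rests on that background and not on the table.

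All 3 genes were highest in LD 1 and lowest in LD 2, with both SD libraries between them. This order was found in 3 of 3 genes and in 7.23% of the 17030 genes and unnamed rows averaging 1 FPKM or more. Because the 3 genes were chosen with earlier results known, this contrast and the ranks given below describe them and are not a test. The gap between the LD libraries was 1.87-fold for plp, 2.55-fold for mbp and 1.87-fold for cd59, and it exceeded the difference between the group means of each gene (1.21-fold, 1.21-fold and 1.32-fold). None of the 3 genes passed the threshold for a difference between LD and SD.

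The membrane-spanning protein came first in level. For plp, SD 1 had 398 FPKM, SD 2 had 369, LD 1 had 606 and LD 2 had 325. The SD libraries lay close together and inside the range of the LD libraries, so the groups overlapped. The SD mean was 383 FPKM with a standard deviation of 20.5, and the LD mean 465 with a standard deviation of 199 (n = 2 libraries per group). Ranked by mean FPKM, plp stood at place 84 of the 17030.

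For mbp, the gene of the inner-face protein, SD 1 had 272 FPKM, SD 2 had 245, LD 1 had 448 and LD 2 had 175. Again LD 1 stood highest and LD 2 lowest, with a wider gap than for plp. The means and standard deviations were 258 ± 18.9 FPKM for SD and 312 ± 193 for LD (n = 2). Its place by mean FPKM was 171.

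For cd59, the gene of the complement regulator, SD 1 had 236 FPKM, SD 2 had 261, LD 1 had 427 and LD 2 had 228. LD 2 lay just under SD 1, and LD 1 stood apart from the other 3 libraries. The means and standard deviations were 249 ± 18.0 FPKM for SD and 327 ± 140 for LD (n = 2). Averaged over the 4 libraries, cd59 (288 FPKM) and mbp (285 FPKM) did not differ beyond their spread, and each of them was below plp (424 FPKM) in every library.

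**Figure D1:**
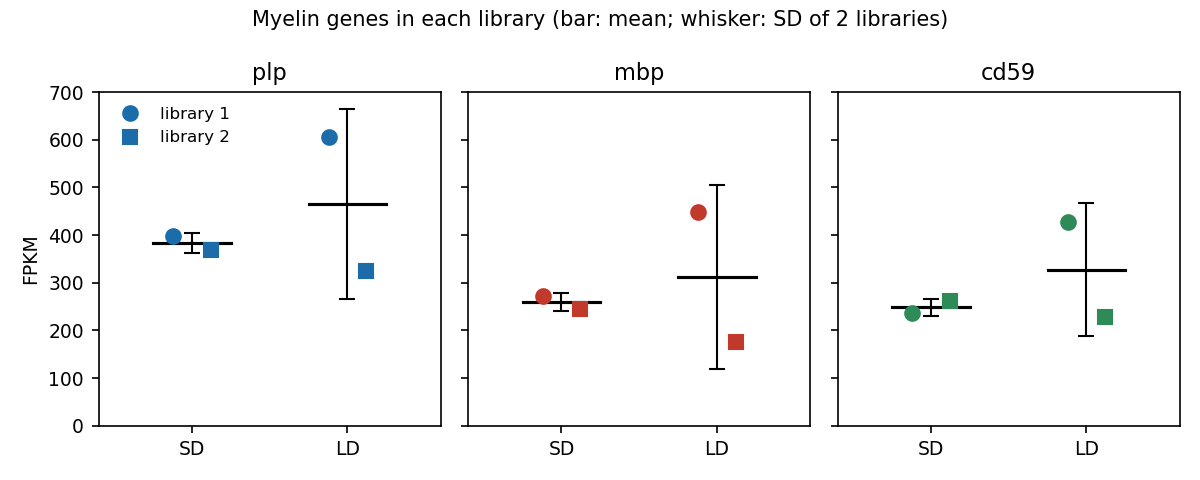
FPKM of plp, mbp and cd59 in each of the 4 libraries (circles for library 1 and squares for library 2 of a group; horizontal bars are means of 2 libraries and whiskers their SD). For each gene the LD 1 circle is the highest point and the LD 2 square the lowest, for plp 606 and 325 FPKM.

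The proportions between the genes varied less over the libraries than their levels. The level of cd59 divided by that of plp was 0.593 and 0.708 for the SD libraries, and 0.704 and 0.702 for the LD libraries. For mbp over plp the ratio was 0.683, 0.665, 0.739 and 0.540 in the same order. The ratio of mbp to plp thus was highest in LD 1 and lowest in LD 2, as the levels were, while that of cd59 to plp was nearly equal in both LD libraries. Together the 3 genes held 0.197% and 0.189% of all FPKM in the SD libraries, 0.321% in LD 1 and 0.158% in LD 2.

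Nearly all of each level came from 1 row. The plp row (MEDAKA075708) lies on chromosome 14 from 16024548 to 16029971. Its hit is protein isoform X2, whose coding sequence has 7 segments on the minus strand and encodes 245 amino acids, and all 738 coding bases matched. A second plp row (MEDAKA075721) spans 16025379 to 16049144 and was listed at 0 FPKM in all 4 libraries. Its hit, isoform X3, encodes 217 amino acids and shares 5 segments with X2, so the isoforms differ at the start of the protein, and 304 of 314 aligned bases matched. That row also overlaps nlgn3b, a neuroligin gene of the synapse, which stood at 59.8, 59.5, 59.5 and 63.4 FPKM and did not follow plp. Coordinates are those of the deposited table, whose genome build the sources used here do not name.

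The single mbp row (MEDAKA002535) lies on chromosome 11 from 19205629 to 19214884, and its hit is protein isoform X3, with 6 coding segments on the plus strand and 132 amino acids. Of 399 aligned bases, 394 matched. Over 946 bases the row overlaps a gene on the other strand (LOC101164416, a zinc finger and BTB domain protein), which was at 11.4 to 12.4 FPKM in all 4 libraries and did not follow mbp. The library kit keeps strand, but the sources used here do not say whether the counting used it, so reads in that overlap cannot be assigned.

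The main cd59 row (MEDAKA014148) lies on chromosome 2 from 25054151 to 25059594, with 4 coding segments on the minus strand and 117 amino acids, and all 354 coding bases matched. A second row (MEDAKA014184, from 25048089 to 25054954) matched at 166 of 186 aligned bases and overlaps both the main row and a melanophilin gene. It was at 0.798, 0.0575, 0.449 and 0.239 FPKM, below the 1 FPKM filter. The main row held 99.7% and 99.98% of the cd59 level in the SD libraries and 99.9% in each LD library, with groups that overlapped (two-sided exact permutation p = 1, where the smallest possible with 2 against 2 libraries is 0.333). Of the 5 rows, 3 passed the filter, and with rows tested singly none of the 3 was called (limma adjusted p between 0.851 and 0.969), against 0.0307% of 22810 rows.

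Between LD and SD, the difference in log2(FPKM + 1) was 0.21 for plp with a standard error of 0.29, 0.12 for mbp with a standard error of 0.43, and 0.33 for cd59 with a standard error of 0.29. The 95% intervals ran from -0.53 to 0.96 for plp, from -0.98 to 1.22 for mbp and from -0.42 to 1.08 for cd59, so changes of up to about these sizes in either direction remained possible. The limma adjusted p over all 17030 was 0.910, 0.973 and 0.862. At an unadjusted p under 0.05, 0 of the 3 genes were called, against 6.34% of all tested. After adjustment 0 of 3 were called, against 0.00587% of all tested, which is the somatotropin gene alone. Two-sided exact permutation of the libraries gave p = 1 for each gene. That value is fixed once LD 1 is highest and LD 2 lowest, so it adds nothing, and the smallest possible is 0.333. In bulk tissue, fewer cells of a type and less RNA per cell cannot be told apart.

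The direction of each difference rested on LD 1. Without that library the log2 difference was -0.24 for plp, -0.56 for mbp and -0.12 for cd59. Without LD 2 it was 0.66, 0.79 and 0.78. Either fit has 1 library in the LD arm, which is assumed to vary like the SD libraries, so only the differences are given here.

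**Figure D2:**
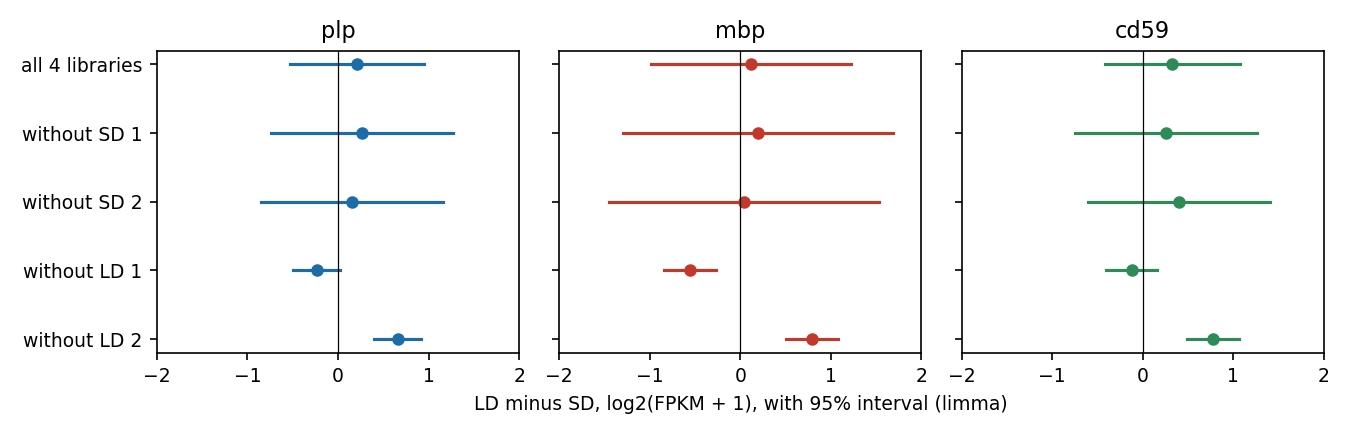
Difference between LD and SD in log2(FPKM + 1) for plp, mbp and cd59 (dots) with 95% limma intervals (lines), for all 4 libraries and with each library left out in turn. The dots lie left of 0 without LD 1, at -0.24, -0.56 and -0.12, and right of 0 in the other rows.

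Set against the other genes, the gap between the LD libraries was wide and that between the SD libraries was not. Over the 9008 genes and unnamed rows averaging 10 FPKM or more, the median ratio of LD 1 to LD 2 was 0.999, with 0.822 and 1.23 as the percentiles 5 and 95. Ranked by this gap on the log2(FPKM + 1) scale, mbp stood at place 6, cd59 at place 30 and plp at place 31. LD 1 was at least 1.5 times LD 2 in 1.1% of these genes, and the reverse held in 0.722%. LD 1 was highest and LD 2 lowest in 7.24%, and 0.588% combined this order with the 1.5-fold gap. Between SD 1 and SD 2 the ratio was 1.08 for plp, 1.11 for mbp and 0.903 for cd59, with a median of 1.003 over the 9008. SD 1 was at least 1.5 times SD 2 in 1.13% of them, and the reverse held in 0.966%. With 2 libraries a group, the difference in spread between SD and LD was not tested.

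**Figure D3:**
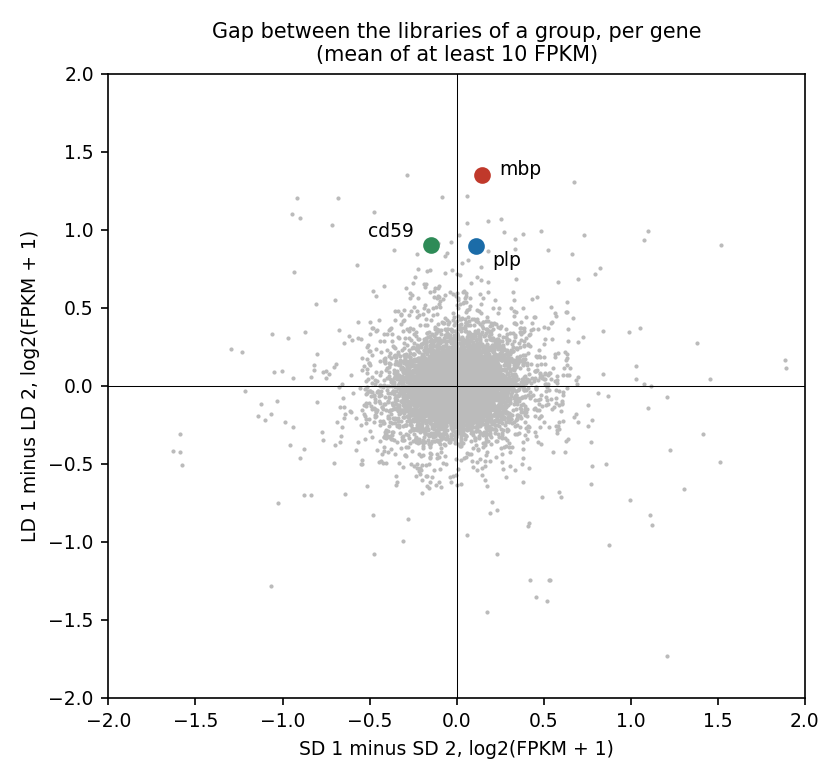
Gap between the libraries of each group in log2(FPKM + 1) for the 9008 genes averaging 10 FPKM or more (grey), SD 1 minus SD 2 on the horizontal axis and LD 1 minus LD 2 on the vertical axis; 14 genes lie beyond the axes. The coloured points for plp, mbp and cd59 sit near 0 horizontally and at 0.90, 1.35 and 0.90 vertically.

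Genes described as the same proteins were next examined. Further rows described as myelin basic protein lie on chromosome 16 under 2 gene names, with 9316 bp between their main rows, and near-identical stretches could share reads among the 3 genes. The one with the symbol mbp was at 56.8, 54.4, 95.2 and 45.6 FPKM. The mbp-like gene LOC101173447 was at 35.6, 31.9, 70.3 and 26.7 FPKM. Both showed the order of libraries seen for the chromosome 11 gene, with LD 1 at 2.09 and 2.63 times LD 2. Neither was called between groups (limma adjusted p = 0.912 and 0.896).

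A second gene described as CD59 glycoprotein (LOC101171663), on chromosome 6 from 26934435 to 26939974, was at 35.7, 35.6, 54.8 and 35.9 FPKM. LD 1 was high here too, but LD 2 was level with the SD libraries, so the groups did not overlap, as for 16.4% of all tested genes with LD above SD (limma adjusted p = 0.818). The gene described as CD59B (LOC101162419) was near the filter, at 1.58, 1.28, 1.27 and 2.16 FPKM, and was highest in LD 2.

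The other genes of the proteolipid family did not show the high LD 1 level seen for plp. This family includes the M6 glycoproteins, of which M6-a is found mainly in neurons, and DM beta, a relative first described in sharks. M6-a (LOC101155741) was at 410, 382, 436 and 443 FPKM, and DM beta (LOC101173373) at 261, 284, 286 and 304. The M6-b gene LOC101175630 was at 230, 205, 251 and 256 FPKM, and a second M6-b gene, gpm6b, at 49.1, 50.3, 38.2 and 46.3. With rows summed, LD 1 was between 0.826 and 0.985 times LD 2 in these 4 genes, and for none of them was it the highest library. For DM beta this turned on a short row of 282 bases (MEDAKA070862, at 20.9, 46.7, 28.5 and 47.0 FPKM). Its main row (MEDAKA070828) was at 240, 237, 258 and 257 FPKM, with nearly equal LD libraries and LD 1 slightly the highest. With rows summed, the groups did not overlap in any of the 4 genes. LD was the higher group for 3 of them, a separation found in 16.4% of all genes tested. For gpm6b LD was the lower group, as for 20.9%. After adjustment none of the 4 was called (limma adjusted p between 0.782 and 0.817). An unadjusted limma p under 0.05 was found for 1, LOC101175630, against 6.34% of all genes tested. The family list had a median log2 difference of 0.13 between LD and SD, against -0.01 over all genes tested.

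**Figure D4:**
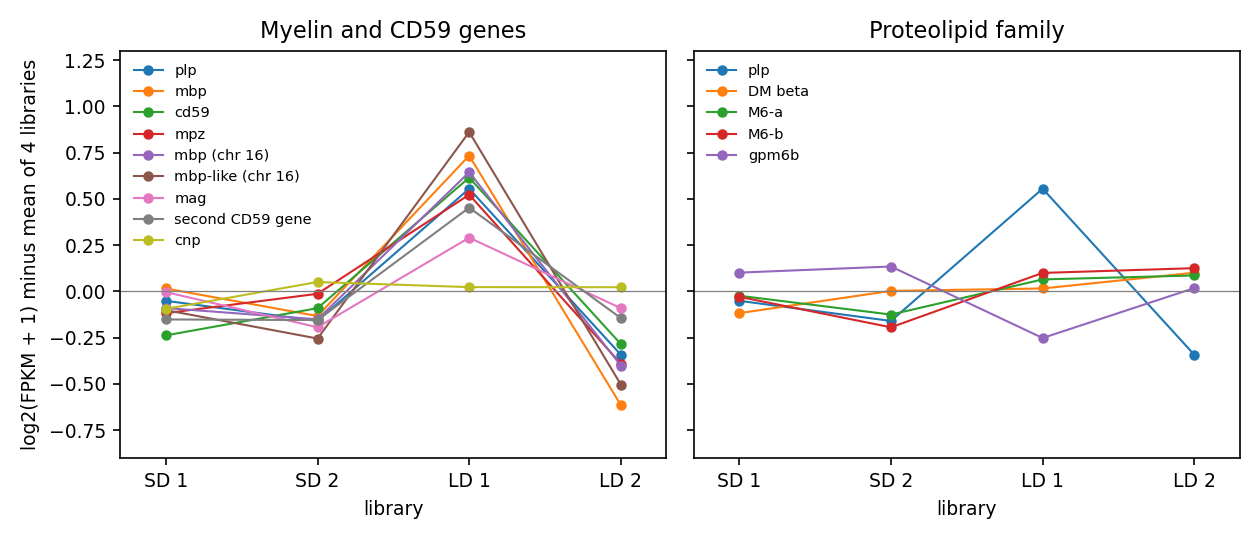
log2(FPKM + 1) minus the gene's mean over the 4 libraries, for myelin and CD59 genes (left) and for the proteolipid family (right). In the left panel all genes but cnp peak in LD 1, and in the right panel plp alone does so.

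Other genes of myelin proteins matched 47 names, of which 25 passed the filter and 3 were listed at 0 in all libraries. None was called by limma after adjustment and 1 of the 25 had an unadjusted p under 0.05, against 6.34% of all genes tested. Of the 25, 17 had higher LD means on the log2 scale, against 46.3% of all genes tested. The other 8 had lower means, and the median difference of the 25 was 0.05. LD 1 was the highest library for 15 of them, against 22.7% of all genes tested, and for 10 of these LD 2 was also the lowest. Of the 25, 8 are myelin-oligodendrocyte glycoprotein-like genes with means between 1.03 and 2.30 FPKM. LD 1 was highest for 7 of these 8 and for 8 of the other 17. With means so close to the filter of 1 FPKM, a high LD 1 value can itself admit a gene. This can raise the count for these 8, and with it the 15 of 25.

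The most abundant of them was mpz, for myelin protein P0, the adhesion protein of nerve myelin that in fish is also found in brain myelin. It was at 212, 228, 331 and 175 FPKM, so LD 1 was 1.89 times LD 2. A tetraspanin-2 gene (LOC101171158), whose protein is a membrane component of oligodendrocytes, was at 119, 117, 146 and 121 FPKM. The adhesion gene cadm4, which links myelin to the axon, was at 104, 94.7, 92.8 and 84.5 FPKM, highest in SD 1. That order turned on a short row of 189 bases (MEDAKA078217, at 19.1 and 18.7 FPKM in SD and listed at 0 in LD). The main cadm4 row (MEDAKA078213) was at 51.0, 47.1, 60.6 and 51.3 FPKM, highest in LD 1.

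Further genes were chosen after their values were seen, so they are given as values and say nothing of how common the pattern was. The glycoprotein gene mag, whose product faces the axon, was at 50.1, 43.8, 61.6 and 47.1 FPKM. Claudin-11 (LOC101166173), which seals the layers of myelin, was at 12.9, 9.72, 13.8 and 6.53. The enzyme gene cnp, a marker of mammalian oligodendrocytes, was at 19.0, 21.2, 20.7 and 20.7 FPKM, with equal LD libraries. A gene described as dehydrogenase/reductase SDR family member 12 (LOC101157874), in no list and taken up because its values lay near those of plp, was at 129, 127, 210 and 107 FPKM; a short-chain dehydrogenase of this kind is a known protein of brain myelin in zebrafish. Many of the remaining list members are myelin-oligodendrocyte glycoprotein-like genes, several of them close together on chromosome 18. All were near or under the filter, and whether they share reads was not tested, so their values are uncertain.

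Genes for myelin lipids had a lower median ratio of LD 1 to LD 2, and the difference between the lists was not tested. Of 17 matched genes 14 were tested, none was called by limma and none had an unadjusted p under 0.05. LD 1 was highest for 8 of the 14, against 22.7% of all genes tested. The median ratio of LD 1 to LD 2 was 1.13, against 1.43 for the myelin proteins and 1.23 for those without the glycoprotein-like genes. The fatty acid elongase gene LOC101175390 was at 23.1, 30.0, 43.6 and 23.4 FPKM. The ceramide synthase 2 gene LOC101175635 was at 29.4, 25.3, 27.0 and 25.8 FPKM, highest in SD 1. Another, LOC101162853, was at 15.9, 16.6, 18.2 and 15.5 FPKM, a narrow range but with LD 1 highest and LD 2 lowest. The gene aspa, for an enzyme that frees acetate for lipid synthesis, was highest in SD 1 (28.4, 17.9, 21.0 and 18.4 FPKM).

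Regulators of the oligodendrocyte lineage were examined next. Of 25 matched genes 17 were tested, none was called by limma and none had an unadjusted p under 0.05. Their median log2 difference between LD and SD was 0.04 and the median ratio of LD 1 to LD 2 was 1.14. LD 1 was the highest library for 9 of the 17, against 22.7% of all genes tested. The 4 most abundant, tcf7l2, a pair of myelin transcription factor 1 genes (LOC101167938 and myt1) and a quaking gene (LOC101161529), had LD 1 at 0.966 to 1.14 times LD 2. Chosen after their values were seen, the lineage factor gene olig2 was at 18.0, 18.3, 21.0 and 17.8 FPKM and myrf, which switches on myelin genes in mature oligodendrocytes, at 14.8, 16.0, 20.2 and 12.7. The precursor marker pdgfra was listed at 0 in all 4 libraries.

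On the axon side, 24 genes of the node and its neighbours matched and 22 were tested. None was called by limma and none had an unadjusted p under 0.05, and the median ratio of LD 1 to LD 2 was 1.03. Neurofilament light (LOC101160521), a structural protein of large axons, was at 387, 398, 395 and 400 FPKM, nearly equal in all libraries. A contactin-1 gene (LOC101166021), whose product joins axon and myelin in mammals and which is also made by fish oligodendrocytes, was at 74.6, 70.7, 99.6 and 67.2 FPKM and followed plp in order. The neuronal adhesion gene LOC101171409 (56.4, 65.2, 56.1 and 62.0 FPKM) and a neurofilament heavy gene, LOC105356117 (60.1, 55.2, 57.6 and 51.0 FPKM), did not.

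The pore that CD59 blocks is built from complement components. Of 15 genes of the pore and its regulators 9 were tested, with a median log2 difference of -0.14. Of the 9, 4 were higher in LD, against 46.3% of all genes tested, and 5 were lower. None was called by limma after adjustment and 2 of 9 had an unadjusted p under 0.05, against 6.34% of all tested. A gene for the pore component C7 (LOC101174608) was at 298 and 260 FPKM in SD and at 188 and 229 in LD, below SD in both libraries, as for 20.9% of all tested genes (limma adjusted p = 0.782). Component gene c6 was at 58.5, 50.9, 48.0 and 46.7 FPKM. Its order turned on row MEDAKA069314, at 20.2, 8.19, 5.47 and 5.66 FPKM. The main c6 row (MEDAKA069315) was at 38.3, 42.7, 42.5 and 41.0 FPKM. The fluid-phase inhibitor clusterin (LOC101161210) was at 251, 294, 268 and 226 FPKM, and a gene described as membrane cofactor protein (LOC101157860) at 61.8, 60.4, 61.2 and 65.1. With rows summed, none of these 4 genes had the order of libraries seen for cd59. The membrane cofactor sum joined rows that went opposite ways. Row MEDAKA057218 was at 44.3, 43.0, 36.1 and 51.8 FPKM, lowest in LD 1. Row MEDAKA057206 had the order of cd59, at 17.4, 17.4, 25.1 and 13.4 FPKM.

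Markers of other cells in the block were summed to set beside the 3 genes. Without plp and mbp, the 31 oligodendrocyte markers (16 tested, 2 listed at 0) summed to 146 to 158 FPKM in SD and 137 to 193 in LD, with LD 1 highest. LD 1 was the highest library for 14 of the 16 tested, against 22.7% of all genes. However, most of the 16 are also in the myelin protein list, and 8 are the low glycoprotein-like genes named above. A high LD 1 value may have carried some of those 8 over the filter. Without those 8, LD 1 was highest for 7 of 8. The gene described as myelin and lymphocyte protein (LOC101170152), planned as a marker, was counted among the myelin proteins only. It was at 1.22, 2.22, 1.95 and 1.59 FPKM, highest in SD 2. Schwann cell markers (8 genes, 6 tested) summed to 231 to 247 FPKM in SD and 193 to 352 in LD, of which mpz made up most. The other 7 summed to 18.3 and 18.7 FPKM in SD, 21.1 in LD 1 and 17.9 in LD 2. Oligodendrocyte precursor markers (5 genes, 2 tested, pdgfra at 0) were near the filter, at 6.92 to 6.97 FPKM in SD and 7.11 to 7.29 in LD. Astroglial markers (15 genes, 10 tested, 1 at 0) summed to 1557 to 1595 FPKM in SD and 1519 to 1640 in LD. Within that sum genes went both ways. Of the 10 tested, 4 had both LD libraries above SD and 3 had both below, against 16.4% and 20.9% of all genes tested. An unadjusted limma p under 0.05 was found for 3 of the 10, against 6.34% of all genes tested. Those 3, none called after adjustment, were slc1a3, with a log2 difference of 1.98, gap junction alpha-1 (LOC101170140), with -0.58, and the glutamate transporter gene LOC101170347, with -0.40. The slc1a3 level was low: the SD mean of 0.504 FPKM lay under the filter, and the LD mean was 4.93. LOC101159662, described as the same transporter as slc1a3 and LOC101170347, averaged 39.1 FPKM over all libraries and had a log2 difference of 0.21.

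Neuron markers (21 genes, none at 0 throughout) summed to 2946 FPKM in both SD libraries and to 3058 and 3041 in LD 1 and LD 2. Microglia and leukocyte markers (9 genes) were at 117 to 160 FPKM in SD and at 156 in LD 1 and 97.2 in LD 2. The gap came from 1 gene, LOC101165946, and the other 8 summed to 38.7 FPKM in LD 1 and 40.3 in LD 2. Endothelial markers (10 genes) were at 73.6 to 74.0 FPKM in SD and at 71.3 and 60.4 in LD. Erythrocyte markers (11 genes, 2 at 0) were at 6173 to 8487 FPKM in SD and at 9264 and 7497 in LD, and skeletal muscle markers (18 genes, 1 at 0) at 15.3 to 22.9 and at 21.7 and 14.7. Pituitary markers (12 genes, of which somatotropin was called) summed to 6963 to 7320 FPKM in SD and to 4040 in LD 1 and 5538 in LD 2. That the sum was lower in LD 1 than in LD 2 rested on prolactin-1 (LOC101172582), at 1825 FPKM in LD 1 and 3536 in LD 2. Without it, as computed after the values were seen, the sums were 2215 FPKM in LD 1 and 2002 in LD 2, and 3064 and 3577 in SD. The median ratio of LD 1 to LD 2 over the 12 genes was 1.002. Their part in the order of libraries for plp, mbp and cd59 was not tested.

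**Figure D5:**
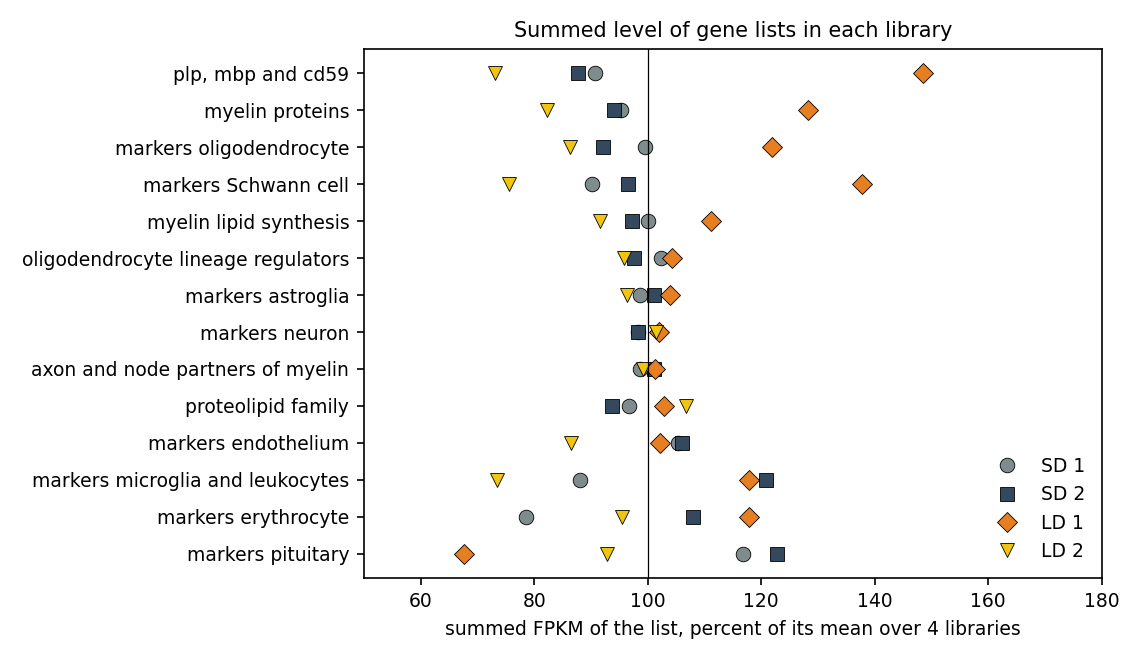
Summed FPKM of each gene list in each library, as a percent of that list's mean over the 4 libraries. LD 1 stands at 148% for plp, mbp and cd59, at 128% for the other myelin proteins, and at 102% for neuron markers. It also stands at 118% for erythrocyte markers and at 118% for microglia and leukocyte markers. The pituitary sum, at 67.7% in LD 1, is led by prolactin-1.

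The genes most like each member over the 4 libraries were found by the root mean square difference of centred log2(FPKM + 1) among the same 9008 genes. With 4 libraries from one comparison, many genes can lie this close. For plp, which itself lay 0.34 from a flat profile, the nearest were a TRIM39-like gene (LOC101165640, 0.040), LOC101157874 (0.041) and the unnamed MEDAKA075354 (0.056). For mbp (0.48 from flat) they were a pentraxin fusion protein gene (LOC101161344, 0.11) and the chromosome 16 genes LOC101173447 (0.12) and mbp (0.13). For cd59 (0.36 from flat) they were mroh1 (0.0095), the uncharacterized LOC101164247 (0.042) and an ADAMTS3 gene (LOC101167013, 0.058). Seen from plp, cd59 took place 16 and mbp place 54 of 9007, seen from mbp, plp took place 9 and cd59 place 17, and seen from cd59, plp took place 12 and mbp place 102.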

How the data were processed

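Strand-specific TruSeq mRNA libraries, 2 per group, were sequenced, per the labels' protocols. The submitters' processing notes list StringTie 1.3.3b and HISAT2 2.0.5 without saying what each did. The authors deposited FPKM, with 1 column per library per the file headers; sums of FPKM ranged from 458696 to 463066, and 22556 to 22869 rows reached 1 FPKM. The depth in reads is unknown, so no counting interval is given.

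Gene names came from the BLAST hit of each row (52142 of 93896 rows). Rows sharing a name were summed wherever they lay, and unnamed rows stayed single, for 62652 units. The RefSeq gene table of medaka, used for names only, held 20915 of 20915 gene identifiers. The 17030 units with a mean of at least 1 FPKM were tested on log2(FPKM + 1), which understates changes of low genes, with limma 3.58.1 in R 4.3.3 (group as only term, mean-variance trend, two-sided, Benjamini-Hochberg adjustment, threshold 0.05). Python 3.11.15, pandas 2.3.3 and matplotlib 3.10.9 did the rest. The fit was tested on simulated data.

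The 3 genes and the lists were chosen with earlier results of these data known. Unrelated matches (sphingomyelin enzymes, eomesodermin, gasdermin and the like) were removed from the lists after values were seen. Named genes were the 3 members, their relatives, and per list the 4 with the highest mean FPKM where none was called; for cell markers, sums are given instead. Other genes named in the text were chosen after their values were seen.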

Additional observations from a re-analysis of the deposited data

How the results depend on the processing

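For plp, mbp and cd59 no alternative changed the call, with limma adjusted p from 0.565 to 0.992 over 13 alternatives, and 1 alternative for each reversed the direction, the fit without LD 1. With each library left out in turn, the log2 difference ran from -0.24 to 0.66 for plp, from -0.56 to 0.79 for mbp and from -0.12 to 0.78 for cd59. With rows tested singly, the range without 1 library was the same for the plp and mbp rows, and -0.12 to 0.78 for the main cd59 row. Pseudocount, filters, trend, robust variance, naming by overlap, median scaling and quantile normalization kept the direction. Over all genes tested, the deviations from the group means of libraries sharing a replicate number correlated at 0.039. With 2 libraries a group this value is the same for both pairs. It cannot show whether such libraries share more than that number, since some genes could vary together. With the replicate number as a block, the log2 differences cannot change in this balanced design (0.21, 0.12 and 0.33), and limma adjusted p was 0.842 for plp, 0.947 for mbp and 0.816 for cd59. The genes called over the whole table, 1 with all libraries, were 0 with the replicate block, 0 with no filter, 0 without a trend, 2 with naming by overlap, and 0 to 4 with a library left out. Of the myelin and oligodendrocyte list genes 0 were called in every alternative. FPKM of 2 libraries a group limits what can be seen: the 95% interval for mbp spanned -0.98 to 1.22.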
